A study of Mus musculus with 30 samples.

Results

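Translation initiation and elongation factor genes were followed through 30 RNA-seq libraries of mouse bone marrow progenitors. They were taken by symbol, as the genes listed in all 5 deposited tables whose names start with Eif1 to Eif6 or with Eef1 or Eef2, leaving out the eIF2 kinases (Eif2ak) and the X and Y copies of the eIF2 gamma subunit (Eif2s3). A mean of at least 1 TPM, the deposited length-scaled share of transcripts, over the 30 libraries was required. Of the 24421 genes in the tables, 58 symbols matched and 56 reached this level. The germ-cell cap-binding gene Eif4e1b was left out because it was listed at 0 in 30 libraries. The neuronal and muscle elongation factor gene Eef1a2 was left out at a mean of 0.0067 TPM, with 0 in 27 libraries. The lowest genes kept were Eif5a2, at a mean of 1.97 TPM, and Eif3j1, at 11.8 TPM.

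The study asks what Bcl11a, a zinc finger transcription factor, does in MPP3 and MPP4, the multipotent progenitors biased to myeloid and to lymphoid output. Cells called T1 and T2 were sorted by flow cytometry from mice called KOiMOS and WTiMOS. The 10 groups of 3 libraries are T1 and T2 of KOiMOS MPP3 at 3 months, WTiMOS MPP3 at 3 months and at 24 months, and WTiMOS MPP4 at 3 months and at 24 months. KOiMOS MPP3 of 24 months were not analysed here. The labels do not say which alleles or agents set T1 apart from T2 or KOiMOS apart from WTiMOS, nor the strain. They also do not say whether the 3 libraries of a group came from separate animals, so p-values measure only the spread between libraries, which may be technical.

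Translation starts when eIF2 brings the initiator tRNA to the small ribosomal subunit, where eIF1, eIF1A, eIF3 and eIF5 help to find the start codon. The eIF4F complex (the cap-binding eIF4E, the scaffold eIF4G and the helicase eIF4A) loads the mRNA, the eIF4E binding proteins hold eIF4E back until mTORC1 phosphorylates them, and eIF2B recharges eIF2 with GTP. The elongation factors eEF1A and eEF2 then deliver aminoacyl-tRNAs and move the ribosome along. Blood-forming stem and progenitor cells are known for a tightly held rate of protein synthesis, and most of the control of these factors acts on the proteins, which RNA levels do not show.

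Some of these genes carry CACGTG, the E-box that Myc and related factors are known to bind, next to their start site. RefSeq promoter windows (GRCm38.p6, 250 bases before to 50 after the start) were present for 43 of the 56 genes. CACGTG, which reads the same on both strands, was in a window of 12 of them (27.9%), against 11.7% of 9803 expressed genes, 8.09% of all 27025 genes in the table and 10.3% of 58 ribosomal protein genes. The 12 were Eef2, Eef2k, Eif1b, Eif3a, Eif3f, Eif3k, Eif4a1, Eif4e, Eif4g1, Eif4h, Eif5a and Eif5a2. The 30 bases around the match are shown for 6 genes that the results below turn on, with the motif in capitals. They lie at chr10:81176576-81176605 (plus strand) for Eef2, chr7:108934335-108934364 (plus) for Eif3f, chr11:69672595-69672624 (minus) for Eif4a1, chr16:20672661-20672690 (plus) for Eif4g1, chr5:134639488-134639517 (minus) for Eif4h and chr11:69921443-69921472 (minus) for Eif5a.
Eef2: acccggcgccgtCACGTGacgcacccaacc
Eif3f: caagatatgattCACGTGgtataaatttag
Eif4a1: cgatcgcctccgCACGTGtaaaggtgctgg
Eif4g1: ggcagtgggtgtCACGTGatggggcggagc
Eif4h: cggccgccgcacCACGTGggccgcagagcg
Eif5a: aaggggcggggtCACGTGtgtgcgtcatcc
The first base of the motif stands at -43 from the annotated start in Eef2, -68 in Eif3f, -189 in Eif4a1, -54 in Eif4g1 (where a further match lies past the start), -96 in Eif4h and -74 in Eif5a. A match is a description of the sequence and shows no binding.

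The deposited values are TPM, which are per length, so levels can be set side by side between genes, but the number of reads behind them is unknown. Bcl11a was higher in T2 than in T1 without overlap in the 4 WTiMOS tables (8.52 to 48.5 TPM in T1, 33.2 to 85.3 in T2, compared within each table) and overlapped in the KOiMOS table (68.8 to 73.2 and 64.3 to 70.6). A level summed over the gene cannot show the loss of part of it. The summed level of 6 progenitor surface genes, Kit, Cd34, Flt3, Cd48, Slamf1 and Ly6a, was 1397 to 4008 TPM in every library, with Slamf1 at 0 in T2 of MPP4 of 24 months. The sum of 4 Y-linked genes was 0 to 0.184 TPM in T1 and 54.0 to 169 TPM in T2 in 3 tables (WTiMOS MPP4 at both ages and MPP3 of 24 months). It went the other way, also without overlap, in KOiMOS MPP3 (110 to 114 TPM in T1, 55.3 to 61.2 in T2) and WTiMOS MPP3 of 3 months (64.2 to 78.9 and 33.8 to 58.5). T1 and T2 libraries thus differ in sex-linked transcripts in all 5 tables, and the share of this in any T2 against T1 difference cannot be told apart. In WTiMOS MPP4 of 3 months, T2 libraries also held fewer genes at 1 TPM or more (10519 to 10660 against 11375 to 11474) and shorter transcripts (a TPM-weighted mean length of 1442 against 1812 nucleotides). In MPP4 of 24 months both stood the other way, without overlap. T2 libraries held 11466 to 11498 such genes against 10868 to 10877 in T1, with mean lengths of 1844 against 1669 nucleotides. Marker sums stood apart in MPP4 of 3 months too, without overlap. The sum of 6 erythroid genes (6 of 6 listed) was 10.9 to 21.2 TPM in T1 and 182 to 265 TPM in T2, with Epor at 0 in T2. Plasma cell markers (3 of 3) stood at 72.1 to 78.0 TPM in T1 and 184 to 201 TPM in T2, and T and NK cell markers (4 of 5) at 1056 to 1116 and 1507 to 1607 TPM, with Cd3e at 0 in both. Neutrophil markers (6 of 6) stood at 549 to 629 TPM in T1 and 364 to 416 TPM in T2, and monocyte and dendritic markers (6 of 6) at 263 to 292 and 120 to 172 TPM. Of 14 proliferation genes 13 fell and 0 rose in that table, beside 72.6% of all genes lower. After the rescaling described below, 6 of them fell and 3 rose, beside 22.8% and 28.8% of all genes. The part of these in the results was not tested.

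The factor genes together made up 1.19% to 2.88% of all TPM (means of 3 libraries). In both MPP4 tables this share moved between T1 and T2 in the opposite direction to the share of the 79 cytosolic ribosomal protein genes. The means also did so in both MPP3 tables of 3 months, where the factor shares of T1 and T2 overlapped. The factor share was 2.82% and 2.88% in T1 and T2 of KOiMOS MPP3, 2.31% and 2.32% in WTiMOS MPP3 of 3 months, 1.51% and 1.84% in MPP3 of 24 months, 1.83% and 1.19% in MPP4 of 3 months, and 1.62% and 1.91% in MPP4 of 24 months. The 3 T1 libraries of MPP4 of 3 months were at 1.82% to 1.84% and the 3 T2 libraries at 1.15% to 1.23%, without overlap. The ribosomal protein share stood the other way there, at 11.2% ± 0.34 (SD, n = 3) in T1 and 17.0% ± 0.67 in T2. The factor sum was therefore 16.4% ± 0.54 of the ribosomal protein sum in T1 and 7.0% ± 0.049 in T2. The same ratio in MPP4 of 24 months was 12.2% ± 0.32 in T1 and 17.1% ± 0.62 in T2. The means of both shares were higher in T2 of MPP3 of 24 months (ribosomal proteins 13.1% ± 0.61 and 14.3% ± 1.36, with overlapping libraries). Eef1a1, the most abundant factor gene, held 13% to 33.2% of the factor sum across the 10 groups.

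**Figure D1:**
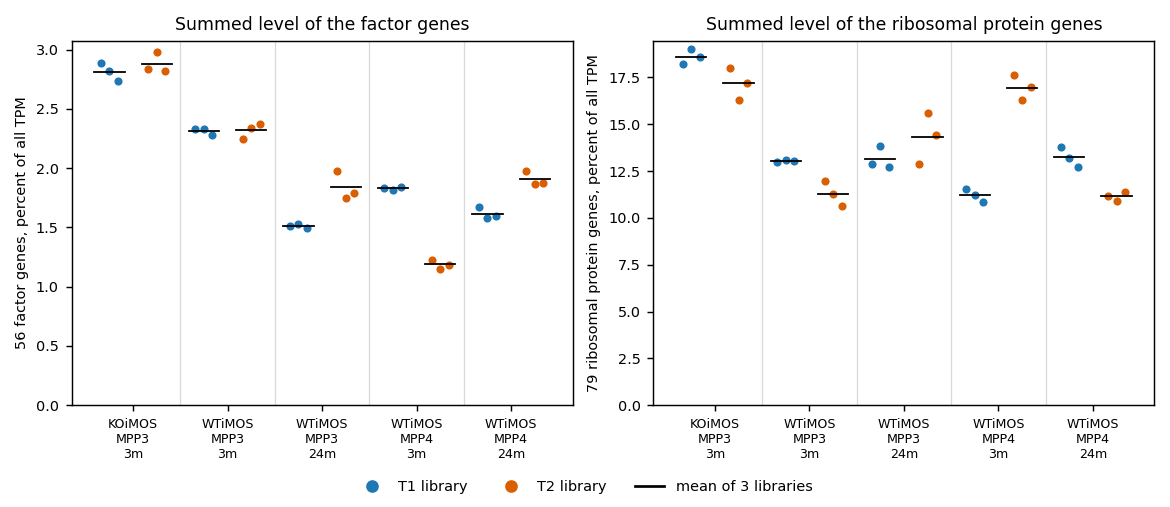
Share of all TPM (percent, y axis from 0) held by the 56 factor genes (left) and the 79 ribosomal protein genes (right) in each of 30 libraries, by deposited table; blue points are T1, orange points T2 and lines the mean of 3 libraries. In WTiMOS MPP4 of 3 months the factor share went from 1.83% in T1 to 1.19% in T2, while the ribosomal protein share went from 11.2% to 17.0%.

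Differences between T2 and T1 were tested with limma on log2(TPM + 1) within each table, and a gene was called where the adjusted p over all genes tested was below 0.05. In KOiMOS MPP3, 9 of the 56 genes rose in T2 and 5 fell, beside 15.9% and 20.4% of 12100 genes (36.4% either way). In WTiMOS MPP3 of 3 months 3 rose and 4 fell, beside 8.39% and 5.96% of 11723 genes (14.3%). This count of 7 was 2 without T1 replicate 3, 3 without T1 replicate 1 or T2 replicate 2, 4 without T1 replicate 2 and 13 without T2 replicate 1. In WTiMOS MPP3 of 24 months 22 rose and 7 fell, beside 30% and 12% of 11317 genes (42%). In WTiMOS MPP4 of 3 months 6 rose and 41 fell, beside 8.71% and 72.6% of 11288 genes (81.3%). In WTiMOS MPP4 of 24 months 27 rose and 5 fell, beside 58.2% and 7% of 11366 genes (65.2%). The factor genes were thus called about as often as other genes in MPP4 of 3 months, and the median over them there, -0.79, lay next to the median over all genes, -0.74.

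TPM share a fixed total, and a rescaling moves all genes of a library alike. It centres the differences near 0 over all genes, so a near-even split follows from it wherever the factor genes sit at the median of all genes. Dividing each library by its median ratio over 8913 genes took the split in MPP4 of 3 months from 6 higher and 41 lower to 23 and 23, beside 28.8% and 22.8% of all genes on the rescaled scale. With that rescaling 29 of the 47 calls kept their direction and 10 became calls the other way (Eef1d, Eif2a, Eif2s1, Eif3f, Eif3g, Eif4a2, Eif4e, Eif4e2, Eif4enif1 and Eif4g3). The split in MPP4 of 24 months went from 27 and 5 to 6 and 22, beside 16.1% and 18.5% of all genes, with 11 of the 32 calls kept and 0 turned over. The split went to 15 higher and 10 lower in MPP3 of 24 months, beside 19.1% and 18.4% (22 of 29 calls kept). It went to 12 and 4 in KOiMOS MPP3, beside 19.6% and 17.6% (13 of 14 kept), and to 1 and 6 in WTiMOS MPP3 of 3 months, beside 4.17% and 7.77% (5 of 7 kept). Calls that held on both scales carry the description below, and rescaled values are given beside the deposited ones.

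No gene was called in 1 direction in 4 or 5 of the 5 tables, and 33 of the 56 were called higher in 1 table and lower in another. Of the 51 genes called in at least 1 table, many changed in opposite directions at 3 and 24 months in MPP4. Eef2, Eif2s2, Eif1ax, Eif4g1, Eif4h, Eif4ebp2 and Eef2k were among them. Over all genes tested there, 72.6% were lower at 3 months and 58.2% higher at 24 months. The 5 genes called in no table were Eef1e1, Eif3e, Eif3i, Eif3j1 and Eif3m. These counts over tables are as deposited, and many of the MPP4 calls behind them changed after rescaling, as given above. The same patterns were not counted over all genes, so the counts do not set the factor genes apart.

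**Figure D2:**
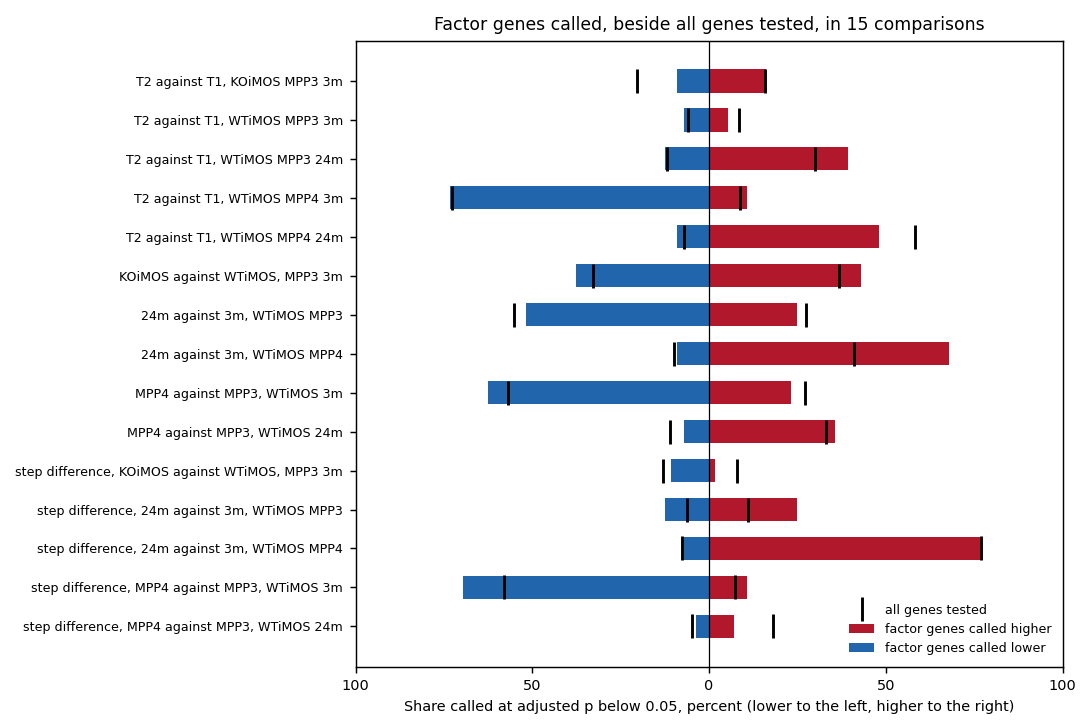
Percent of the 56 factor genes called higher (red, to the right) or lower (blue, to the left) at adjusted p below 0.05 in 15 comparisons, with black ticks for the percent of all genes tested. Bars and ticks lie close in T2 against T1 of WTiMOS MPP4 of 3 months (72.6% of all genes lower), and the bar passes the tick for age in MPP4 (38 of 56 genes higher, beside 41.1% of all genes).

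**Figure D3:**
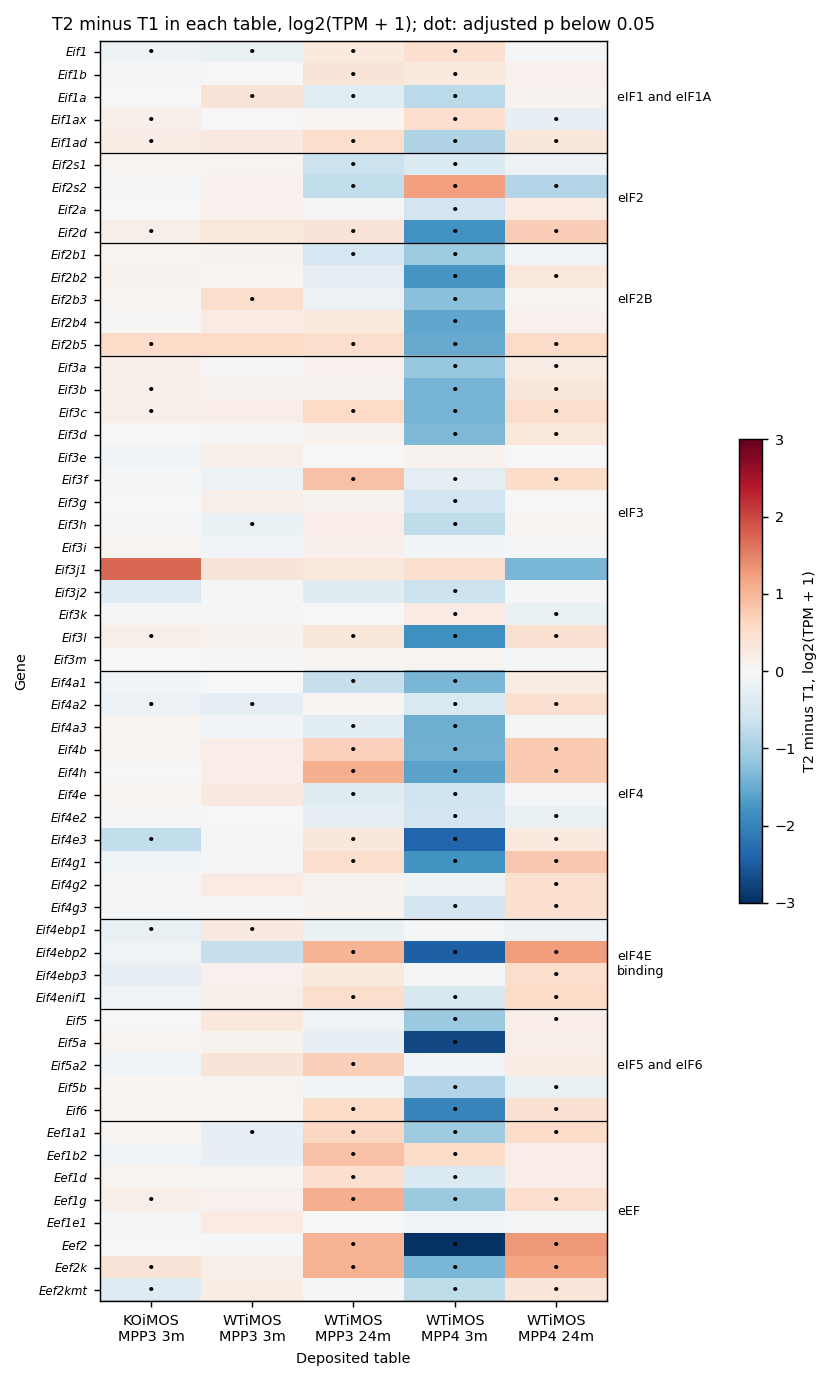
T2 minus T1 on the log2(TPM + 1) scale (colour, blue lower and red higher in T2, limits -3 and 3) for the 56 factor genes (1 line each, by factor) in the 5 deposited tables (columns); a dot marks an adjusted p below 0.05. The WTiMOS MPP4 column of 3 months is blue for 41 called genes, and the MPP4 column of 24 months is red for 27 called genes.

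Among the factors that scan for the start codon, Eif1, which keeps the scanning ribosome strict about the start codon, was the most abundant. In T1 of MPP4 of 3 months Eif1 was at 1160, 1189 and 1211 TPM and in T2 at 1678, 1654 and 1753 TPM in T2, a log2 difference of 0.51 (SE 0.05, adjusted p 1.7e-07, limma; rescaled 1.43). The groups did not overlap there. In WTiMOS MPP3 of 3 months Eif1 fell by 0.23 (adjusted p 0.0254), with T1 at 1125 to 1280 and T2 at 982 to 1060 TPM. Eif1ax, the X-linked gene of eIF1A, stood at 295 to 307 TPM in T1 and 413 to 453 TPM in T2 of MPP4 of 3 months (0.51, adjusted p 2.96e-06; rescaled 1.42). It went the other way at 24 months, with 377 to 385 TPM in T1 and 295 to 369 TPM in T2 (-0.25, adjusted p 0.0286; rescaled -0.67). Reads of Eif1ax and its autosomal copy Eif1a, and of Eif1 and Eif1b, may be split between near-identical genes, and the sources used here do not say how the counting treated them.

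The eIF2 complex gave the member that rose most in MPP4 of 3 months. Its alpha and beta subunit genes moved apart there as deposited, but both rose after rescaling. In MPP3 of 24 months both fell, and the gamma subunit genes were left out. Eif2s2, the beta subunit gene (chr2:154871410-154892935, minus strand), was at 130, 133 and 125 TPM in T1 and at 299, 321 and 298 TPM in T2 (1.23, SE 0.07, adjusted p 1.54e-09; rescaled 2.14). At 24 months it fell in both cell types. In MPP4 of 24 months it was at 220, 266 and 241 TPM in T1 and 137, 135 and 121 TPM in T2 (-0.88, adjusted p 4.43e-05; rescaled -1.31). In MPP3 of 24 months it was at 270, 274 and 279 TPM in T1 and 187, 166 and 143 TPM in T2 (-0.73, adjusted p 0.000321; rescaled -0.92). T1 and T2 did not overlap in any of these 3 tables, and in both MPP3 tables of 3 months Eif2s2 was not called (-0.04 in KOiMOS and 0.14 in WTiMOS). The T2 minus T1 difference of Eif2s2 was 2.11 lower at 24 than at 3 months in MPP4 (log2, SE 0.11, adjusted p 8.74e-13).

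Eif2s1, the alpha subunit gene whose protein the stress kinases phosphorylate, fell in T2 of MPP3 of 24 months, from 326, 278 and 335 TPM to 217, 179 and 202 TPM (-0.65; rescaled -0.83). In MPP4 of 3 months its log2 difference was -0.40 as deposited and 0.51 after rescaling, both called, so no direction is given. Eif2d, which can place initiator tRNA without GTP, fell there from 25.8 to 28.5 TPM in T1 to 5.91 to 7.99 TPM in T2 (-1.81; rescaled -0.98).

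All 5 genes of eIF2B, the exchange factor for eIF2, fell in T2 of MPP4 of 3 months, and 4 of them still did after rescaling. Over all genes 72.6% fell there as deposited and 22.8% after rescaling. Eif2b2 was at 75.5, 84.2 and 90.6 TPM in T1 and at 22.5, 25.0 and 23.3 TPM in T2 (-1.78; rescaled -0.89). The others ranged from -1.06 for Eif2b1, which was not called after rescaling, to -1.55 for Eif2b4. The summed level of the 5 genes was 321 ± 15.1 TPM (SD, n = 3) in T1 and 123 ± 7.05 TPM in T2. With age in MPP4 all 5 rose on both scales (Eif2b2 0.77, rescaled 0.49), as means of T1 and T2. Over all genes 41.1% were higher in that comparison as deposited and 16.6% after rescaling. Within T1 cells alone the mean of Eif2b2 was 83.4 TPM at 3 months and 68.8 TPM at 24 months. In KOiMOS MPP3 the catalytic subunit gene Eif2b5 rose from 15.8 to 18.1 TPM in T1 to 24.3 to 28.0 TPM in T2 (0.58, adjusted p 0.000134; rescaled 0.60). The gamma subunit gene Eif2b3 rose in T2 of WTiMOS MPP3 of 3 months, from 60.1 to 74.2 TPM to 90.4 to 98.0 TPM (0.52, adjusted p 0.00897; rescaled 0.40).

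The eIF3 complex, the scaffold that binds the small subunit, held both the narrowest and the widest ranges of level as deposited. The ratio of the highest to the lowest group mean was 1.28 for Eif3k and 1.29 for Eif3e, the 2 lowest of the 56 genes, and 98.7 for Eif3f, the highest of the 56. After rescaling the ratio was 2.38 for Eif3k and 2.57 for Eif3e, ranks 17 and 18 of the 56, so their narrow range holds for the deposited scale only, and 111 for Eif3f, still the highest. The median ratio was 3.24 over the 56 genes, beside 4.72 over 9640 genes with at least 1 TPM in every group and 2.81 over the ribosomal protein genes (3.23, 4.03 and 4.39 after rescaling). Eif3k, one of the small peripheral subunits, was at 448 to 618 TPM in all 30 libraries. Eif3e, whose product helps to hold the octamer together, was at 485 to 718 TPM. Eif3b, Eif3c, Eif3d and Eif3l all fell in T2 of MPP4 of 3 months, by 1.34 to 1.84 as deposited and by 0.45 to 0.94 after rescaling. Eif3l, the partner of Eif3k, was at 149, 147 and 169 TPM in T1 and 47.0, 38.8 and 42.0 TPM in T2 (-1.84, adjusted p 1.02e-09), while Eif3k rose (0.25, adjusted p 0.00156). Subunits of 1 complex thus moved in opposite directions between the same libraries.

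Eif3f (chr7:108934417-108942951, plus strand), a subunit of the MPN domain pair of the complex, was the one of the 56 genes that differed most between KOiMOS and WTiMOS. In KOiMOS MPP3 it was at 8.58, 8.61 and 9.56 TPM in T1 and 7.29, 12.3 and 6.99 TPM in T2. In WTiMOS MPP3 of the same age it was at 892, 887 and 848 TPM in T1 and 746, 787 and 800 TPM in T2. The 6 KOiMOS libraries lay far below all 24 WTiMOS libraries, whose lowest was 144 TPM. The log2 difference of the table means was -6.40 (SE 0.10, adjusted p 7.38e-13, limma; rescaled -6.45). Among 2440 genes with a mean of at least 100 TPM in either table, Eif3f was the one with the largest drop in KOiMOS, 4 were at least 32-fold lower and 5 at least 32-fold higher. The other eIF3 genes did not share a drop of this size. Of all 14 eIF3 genes, Eif3f included, 8 were called higher and 4 lower in KOiMOS, beside 36.8% and 32.7% of all genes. Eif3h, the other MPN subunit, differed by -0.12. The tables were deposited separately, so table and genotype cannot be told apart.

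Within WTiMOS MPP3, Eif3f also differed between the ages, which cannot be told apart from the tables. It was lower at 24 than at 3 months in MPP3 (-1.70, adjusted p 3.48e-12; rescaled -1.14). In MPP3 of 24 months it was at 162, 230 and 171 TPM in T1 and 353, 363 and 316 TPM in T2 (0.88, adjusted p 0.000331; rescaled 0.70). The T2 minus T1 difference was 1.06 higher at 24 months than at 3 months (adjusted p 0.000206). In MPP4 of 3 months the difference of T2 from T1 was -0.28 as deposited and 0.63 after rescaling, both called. For age in MPP4 the direction of Eif3f turned within T2 cells alone.

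**Figure D4:**
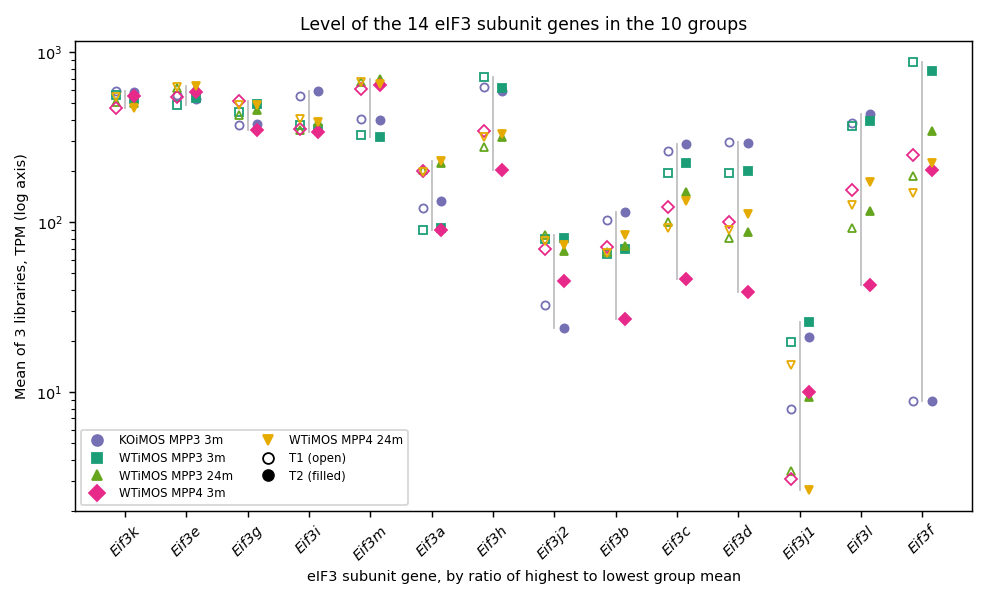
Mean TPM of 3 libraries (log axis) for the 14 eIF3 subunit genes in the 10 groups, ordered by the ratio of highest to lowest group mean; symbols give the deposited table, open for T1 and filled for T2, and grey lines join the lowest and highest mean. Eif3k and Eif3e at the left span ratios of 1.28 and 1.29, and Eif3f at the right spans 98.7 because both KOiMOS groups lie near 9 TPM. All values are as deposited.

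Eif3j1 and Eif3j2, near-identical copies of the loosely bound j subunit gene, are given as a pair because their split between libraries was uneven. Eif3j1 was below 6 TPM in 19 libraries and at 15 TPM or more in the other 11, with none between. In the 6 groups that held libraries of both kinds, Eif3j2 was lowest in a library where Eif3j1 was high in 6 of 6. Within a group the highest library was a median of 8.93 times the lowest for Eif3j1 and 1.54 times for Eif3j2, but 1.11 times for their sum.

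Within eIF4F, close paralogs differed in how far their levels ranged. Eif4a1, the RNA helicase that unwinds the 5′ leader (chr11:69666936-69672423, minus strand), was at 2314, 2217 and 2171 TPM in T1 and 2086, 2313 and 2376 TPM in T2 of WTiMOS MPP3 of 3 months. In MPP3 of 24 months it was at 202, 151 and 187 TPM in T1 and 87.9, 115 and 131 TPM in T2. Every library of 24 months lay below every library of 3 months, a log2 difference of -3.99 (SE 0.08, adjusted p 3.08e-15; rescaled -3.43). Its paralog Eif4a2 was at 244 to 322 TPM at 3 months and 188 to 271 TPM at 24 months in the same cells (-0.41 as deposited and 0.15, not called, after rescaling). Across the 10 groups the ratio of highest to lowest mean was 21.3 for Eif4a1 and 2.10 for Eif4a2 (15.1 and 1.99 after rescaling). The sum of neutrophil marker genes (6 of 6 listed) was 4854 to 6371 TPM in MPP3 of 3 months. At 24 months it was 5470 to 6335 TPM in T1 and 803 to 1031 TPM in T2. Mast cell and basophil markers (6 of 6) stood at 161 to 385 TPM at 3 months and 732 to 2477 TPM at 24 months. T and NK cell markers (4 of 5) stood at 742 to 1036 and 2461 to 2790 TPM. The part of these sums was not tested.

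The scaffold genes showed the same contrast. Eif4g1, the main eIF4G, was at 78.1 to 113 TPM in the 6 libraries of WTiMOS MPP3 of 3 months and at 16.3 to 27.8 TPM in those of 24 months (-2.05; rescaled -1.50). It fell in T2 of MPP4 of 3 months, from 23.4, 21.8 and 21.0 TPM to 6.71, 5.22 and 5.21 TPM (-1.79; rescaled -0.98). In MPP4 of 24 months it rose from 17.4, 16.2 and 14.1 TPM to 32.3, 27.3 and 26.4 TPM (0.81; rescaled 0.40). The ratio over groups was 16.9 for Eif4g1, 2.53 for Eif4g2, which lacks the eIF4E binding site, and 2.76 for Eif4g3 (8.04, 1.92 and 3.79 after rescaling). Eif4h and Eif4b, cofactors of the helicase, fell in T2 of MPP4 of 3 months (-1.61 and -1.43; rescaled -0.71 and -0.54) and rose at 24 months (0.78 and 0.79; both 0.36 rescaled). Eif4h also rose in T2 of MPP3 of 24 months, from 58.0, 84.4 and 59.1 TPM to 135, 150 and 140 TPM (1.09, adjusted p 0.000129; rescaled 0.90).

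Of the cap-binding genes, Eif4e, the main one, was at 152 to 304 TPM in all libraries. Eif4e3, a family member that binds the cap in an atypical way, was called in both directions. Both Eif4e and Eif4e2 were called lower in 2 of the 5 tables as deposited. In MPP4 of 3 months the calls of both turned to higher after rescaling. The T1 libraries of MPP4 of 3 months held Eif4e3 at 58.0, 61.1 and 57.6 TPM and the T2 libraries at 9.16, 10.9 and 11.6 TPM (-2.38, adjusted p 7.02e-10; rescaled -1.52). In KOiMOS MPP3 it fell from 66.9, 70.7 and 74.6 TPM to 38.4, 44.2 and 43.0 TPM (-0.74, adjusted p 3.66e-06; rescaled -0.70). In WTiMOS MPP3 of 3 months T1 (113 to 124 TPM) and T2 (108 to 118 TPM) overlapped and it was not called. The T2 minus T1 difference of Eif4e3 was 0.68 lower in KOiMOS than in WTiMOS MPP3 (SE 0.11, adjusted p 0.00019; rescaled -0.52). The sum of mast cell and basophil markers (6 of 6) was 388 to 500 TPM in T1 and 3875 to 4201 TPM in T2 of KOiMOS MPP3. Neutrophil markers stood at 3008 to 3208 and 6210 to 6415 TPM there, and erythroid markers at 30.9 to 76.8 and 260 to 301 TPM. B cell and T and NK cell marker sums were lower in T2. After rescaling 14 of 14 proliferation genes were called higher in T2, beside 19.6% of all genes. The part of these was not tested.

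Among the eIF4E binding proteins, which block eIF4F assembly when unphosphorylated, the 2 main genes behaved differently. Eif4ebp1 was the more abundant, with group means of 201 to 274 TPM (ratio 1.36, rescaled 2.78). Eif4ebp2, at group means of 1.87 to 27.4 TPM (ratio 14.7, rescaled 6.23), fell in T2 of MPP4 of 3 months from 16.7, 14 and 13 TPM to 2.46, 1.69 and 1.45 TPM (-2.45, adjusted p 1.58e-08; rescaled -1.79). It rose in T2 at 24 months, in MPP4 from 7.65, 3.96 and 6.23 TPM to 12.8, 15.2 and 18.3 TPM (1.26, adjusted p 0.000555; rescaled 0.89). In MPP3 of 24 months it rose from 7.12, 6.06 and 9.38 TPM to 13.8, 20.3 and 14.4 TPM (1.01, adjusted p 0.00139; rescaled 0.85). None of these groups overlapped. Eif4ebp1 fell in T2 of KOiMOS MPP3, from 235, 241 and 234 TPM to 204, 194 and 207 TPM (-0.23, adjusted p 0.00112). In WTiMOS MPP3 it was at 217, 250 and 216 TPM in T1 and 279, 273 and 270 TPM in T2 (0.27, adjusted p 0.0403), a call that was lost after rescaling. The difference between these 2 steps was -0.50 (adjusted p 0.000648; rescaled -0.34, still called).

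Eif5a (chr11:69916714-69921958, minus strand), whose hypusine-modified protein helps the ribosome through difficult peptide bonds, was the most abundant gene of the eIF5 and eIF6 group. It was, in MPP4 of 3 months, at 1912, 2214 and 2575 TPM in T1 and at 301, 378 and 350 TPM in T2 (-2.70, SE 0.12, adjusted p 1.89e-07; rescaled -1.78). In the other 4 tables the log2 difference was -0.25 to 0.18, and Eif5a was called in none of them. Its T2 minus T1 difference was 2.88 higher at 24 than at 3 months in MPP4 (adjusted p 3.32e-11; rescaled 1.54). Eif6, which keeps the ribosomal subunits apart, fell in MPP4 of 3 months from 201, 216 and 220 TPM to 49.0, 59.3 and 51.4 TPM (-1.98, adjusted p 2.65e-10; rescaled -1.08). It rose in T2 of MPP3 of 24 months, from 109 TPM in each T1 library to 138, 164 and 181 TPM (0.55, adjusted p 0.00235; rescaled 0.37). Eif5, the GTPase activator of eIF2, fell by 1.12 in MPP4 of 3 months (rescaled -0.22), and Eif5a2, the second eIF5A gene, was at 0.797 to 3.54 TPM.

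Eef2 (chr10:81176631-81182498, plus strand), the translocase of elongation, had the widest range of the 56 genes after Eif3f, with a ratio of 55.0 between group means (rescaled 23.7, also second to Eif3f). It was at 2554, 2479 and 2397 TPM in T1 and 2391, 2615 and 2389 TPM in T2 of KOiMOS MPP3, and at 1145, 1244 and 1193 TPM in T1 and 1057, 1177 and 1270 TPM in T2 of WTiMOS MPP3 of 3 months. T1 and T2 overlapped in both of these tables. In MPP4 of 3 months it was at 365, 356 and 348 TPM in T1 and 50.2, 39.0 and 46.0 TPM in T2 (-2.96, SE 0.09, adjusted p 1.77e-11; rescaled -2.06). In the 24-month tables it rose in T2, in MPP4 from 154, 145 and 137 TPM to 389, 348 and 348 TPM (1.31, adjusted p 1.3e-06; rescaled 0.88). In MPP3 of 24 months it rose from 132, 158 and 133 TPM to 273, 284 and 310 TPM (1.03, adjusted p 2.12e-05; rescaled 0.84). The T2 minus T1 difference was 4.27 higher at 24 than at 3 months in MPP4 (SE 0.12, adjusted p 3.09e-18; rescaled 2.95), the highest of the 56 values on both scales.

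The kinase gene of eEF2, Eef2k, whose product slows elongation, moved the same way as its target in 3 WTiMOS tables. It fell in T2 of MPP4 of 3 months from 15.5 to 18.2 TPM to 5.45 to 6.69 TPM (-1.36; rescaled -0.55). It rose in T2 of MPP4 of 24 months (1.19; rescaled 0.80) and of MPP3 of 24 months (1.04; rescaled 0.88). In KOiMOS MPP3, where Eef2 was not called, Eef2k rose too: T1 was at 75.8 to 81.1 TPM and T2 at 99.3 to 109 TPM (0.40; rescaled 0.43).

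Of the 8 genes named Eef1 or Eef2, 6 rose in T2 of MPP3 of 24 months and 0 fell, on both scales. Over all genes 30% rose and 12% fell as deposited, and 19.1% and 18.4% after rescaling. The median over the 8 was 0.75 beside 0.18 over all genes. The 8 include Eef1e1, of the synthetase complex, and the kinase and methyltransferase genes of eEF2, Eef2k and Eef2kmt. Eef1a1, which carries aminoacyl-tRNAs to the ribosome (chr9:78478449-78489151, minus strand), went from 3537, 4375 and 3770 TPM to 6964, 5556 and 5621 TPM (0.63, adjusted p 0.00102; rescaled 0.45). Eef1g, a subunit of its exchange factor, went from 342, 390 and 335 TPM to 833, 748 and 704 TPM (1.10, adjusted p 9.5e-06; rescaled 0.91). T1 and T2 did not overlap for either gene. Eef1a1, Eef1b2, Eef1d, Eef1g, Eef2 and Eef2k each had a higher T2 minus T1 difference at 24 than at 3 months in MPP3, called on both scales (0.88 for Eef1a1 and 0.97 for Eef1g). In these libraries the sum of the plasma cell markers Jchain, Mzb1 and Sdc1 was 29.1 to 35.3 TPM in T1 and 2350 to 3168 TPM in T2, and that of 6 neutrophil markers 5470 to 6335 TPM in T1 and 803 to 1031 TPM in T2. Their part in the rise was not tested. Eef1a1 has many processed copies in the genome, whose reads the counting may have split from it.

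**Figure D5:**
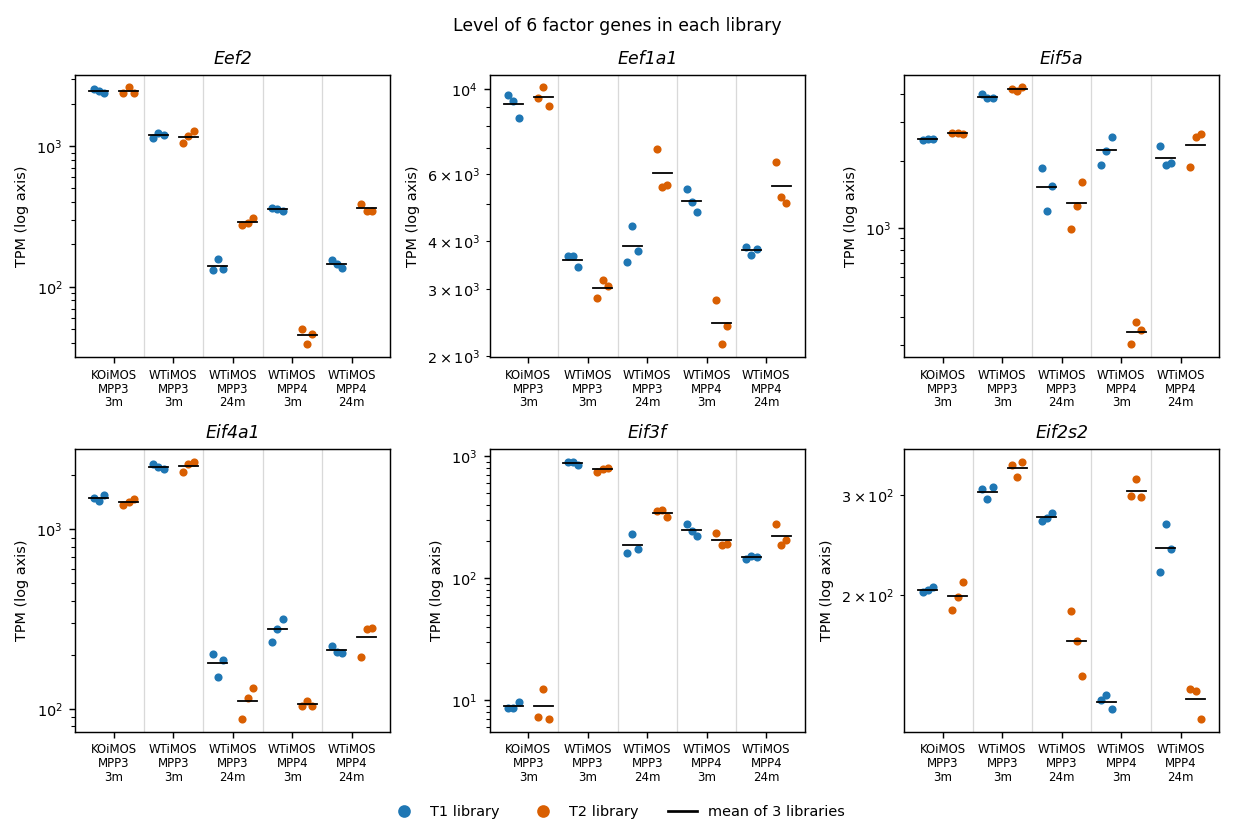
TPM (log axis) of Eef2, Eef1a1, Eif5a, Eif4a1, Eif3f and Eif2s2 in each of 30 libraries by deposited table; blue points are T1, orange points T2 and black lines the mean of 3 libraries. Eif3f of KOiMOS lies at 6.99 to 12.3 TPM against 144 TPM or more elsewhere, and Eef2 of WTiMOS MPP4 lies at 39.0 to 50.2 TPM in T2 of 3 months against 348 to 389 TPM in T2 of 24 months.

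Levels between tables were compared as the mean of T1 and T2, where table, genotype, age and cell type cannot be told apart from how each table was made. KOiMOS against WTiMOS MPP3 gave 24 genes higher and 21 lower, beside 36.8% and 32.7% of 12609 genes (69.5% either way), and 20 and 23 after rescaling, beside 32.8% and 37.3%, where 41 of the 45 calls kept their direction. The genes named Eef1 or Eef2 leaned one way here, with 6 of 8 higher and 0 lower. Eef1a1 was at 8416 to 10121 TPM in KOiMOS and 2847 to 3657 TPM in WTiMOS (1.51, adjusted p 1.62e-18; rescaled 1.41), and Eef2 differed by 1.07. Eif4b, at 199 to 241 TPM against 62.1 to 89.3 TPM, differed by 1.48. The eIF2B genes leaned the other way, with 1 higher and 4 lower.

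For age in MPP3, 14 genes were higher and 29 lower at 24 months, beside 27.5% and 55.2% of 12384 genes (82.7%), and 31 and 20 after rescaling, beside 40.2% and 42.4%, where 34 calls kept their direction. Genes lower on both scales included Eif4a1 (-3.99), Eef2 (-2.54), Eif4h (-2.41), Eif2b4 (-2.13) and Eif2d (-2.06). Eef1b2, another subunit of the exchange factor, was higher (1.73; rescaled 2.29), at 141 to 194 TPM at 3 months and 368 to 940 TPM at 24 months. For cell type at 3 months, 13 genes were higher and 35 lower in MPP4, beside 27.2% and 57% of 12358 genes (84.1%), and 26 and 20 after rescaling, beside 41.1% and 42.8%, where 33 calls kept their direction. Eif4a1 (-3.71), Eef2 (-3.21) and Eif4h (-3.06) were again the largest drops. These 2 comparisons share the WTiMOS MPP3 libraries of 3 months, so their likeness is no separate evidence. Eif4ebp3 was higher in both (2.57 and 2.44), but reads may be shared with a transcript that runs through from Ankhd1.

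For age in MPP4, 38 genes were higher and 5 lower at 24 months, beside 41.1% and 9.98% of 11789 genes (51.1%), and 24 and 15 after rescaling, beside 16.6% and 26.3%. Within T1 cells 7 genes were higher and 26 lower at 24 months, beside 6.63% and 52.2% of all genes. Within T2 cells 42 were higher and 6 lower, beside 72.7% and 8.47%, so the counts over all genes differed between T1 and T2 cells in the same direction. Within T1 cells Eef2 differed by -1.29, at 348 to 365 TPM at 3 months and 137 to 154 TPM at 24 months, and within T2 cells by 2.98. Eif2s2 differed by 0.89 within T1 cells and by -1.22 within T2 cells. For cell type at 24 months, 20 genes were higher and 4 lower in MPP4, beside 33.1% and 11.1% of 11897 genes (44.2%), and 7 and 21 after rescaling, beside 16.8% and 22.8%. Within T1 cells alone 6 were higher and 0 lower, beside 12% and 8.33%. Eif4a1 was higher in MPP4 on both scales (0.71; rescaled 0.52), as were Eif5a (0.67; rescaled 0.48) and Eif3l (0.50; rescaled 0.31), and Eef1b2 was lower (-0.62; rescaled -0.81).

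The T2 minus T1 differences were then set against each other. Between KOiMOS and WTiMOS MPP3, 1 gene had a higher and 6 a lower difference in KOiMOS, beside 7.99% and 12.9% of 12609 genes (20.9%), and 5 and 2 after rescaling, beside 11% and 6.96%. The count of 7 was 3 without WTiMOS T1 replicate 3 and 4 without WTiMOS T1 replicate 1 or WTiMOS T2 replicate 2. Between the ages in MPP3, 14 were higher and 7 lower at 24 months, beside 10.9% and 6.12% of 12384 genes (17%), and 11 and 8 after rescaling, beside 9.38% and 7.66%, with 18 of 21 calls kept. Between the ages in MPP4, 43 were higher and 4 lower, beside 76.9% and 7.52% of 11789 genes (84.5%), and 15 and 25 after rescaling, beside 24.4% and 24.7%, with 19 kept and 14 turned over. Between MPP4 and MPP3 of 3 months, 6 were higher and 39 lower, beside 7.4% and 58% of 12358 genes (65.4%), and 19 and 20 after rescaling, beside 21.1% and 16.6%. Between MPP4 and MPP3 of 24 months, 4 were higher and 2 lower, beside 18% and 4.77% of 11897 genes (22.8%), and 1 and 13 after rescaling, beside 8.18% and 10.4%. This count of 6 was 3 without WTiMOS MPP3 T1 replicate 3 or MPP3 T2 replicate 2, and 10 without MPP4 T2 replicate 1.

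The genes with CACGTG in the promoter window can be read against the rest in the same tests. In T2 against T1 of MPP4 of 3 months 2 of the 12 rose and 9 fell (median -1.25), and 4 of the 31 without it rose and 24 fell (median -0.89). In MPP3 of 24 months 7 of the 12 rose and 2 fell (median 0.46), and 11 of the 31 rose and 4 fell (median 0.10). For age in MPP3 2 of the 12 were higher and 8 lower (median -1.63), and 9 of the 31 were higher and 16 lower (median -0.33). Over all genes 72.6% fell in the first of these tests, 30% rose and 12% fell in the second, and 55.2% were lower in the third. In the third, the log2 difference over all genes also had a correlation of -0.376 with GC content. These counts are descriptions on the deposited scale, and the 2 sets were not tested against each other.

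Genes that act on these factors were counted by list in T2 against T1 of MPP4, as deposited and after rescaling. Of 7 hypusine and polyamine enzyme genes, which make and feed the modification of eIF5A, 0 rose and 6 fell at 3 months (1 and 2 after rescaling). Dohh, the hydroxylase that completes hypusine, went from a mean of 35.1 to 8.31 TPM (-1.95; rescaled -1.11), and Srm, spermidine synthase, from 305 to 120 TPM (-1.34; rescaled -0.43). At 24 months 4 rose and 0 fell (0 and 1 rescaled). Of 7 diphthamide enzyme genes, which modify eEF2, 2 rose and 4 fell at 3 months (3 and 1 rescaled), and 2 and 0 at 24 months (0 and 3 rescaled). Of 9 tested genes for eIF2 kinases, their regulators and the eIF2 phosphatase, 0 rose and 9 fell at 3 months (1 and 3 rescaled), and 5 rose and 0 fell at 24 months (2 and 1 rescaled). Ppp1r15a, the inducible phosphatase subunit, fell at 3 months from 115 to 27.6 TPM (-2.01; rescaled -1.12).

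Of 8 genes that regulate eIF4F, 0 rose and 8 fell at 3 months (0 and 1 rescaled), and 7 rose and 0 fell at 24 months (4 and 1 rescaled). Gigyf2, a partner of a cap-binding repressor, fell at 3 months from 10.4 to 3.49 TPM (-1.34; rescaled -0.59) and rose at 24 months from 4.53 to 11.4 TPM (1.16; rescaled 0.79). Of 18 mTORC1 pathway genes 2 rose and 16 fell at 3 months (3 and 4 rescaled), and 8 and 2 at 24 months (3 and 2 rescaled). Of 22 cytosolic tRNA synthetase genes 1 rose and 21 fell at 3 months (2 and 15 rescaled), and 12 and 1 at 24 months (0 and 3 rescaled). Of 12 genes of the Myc and nucleolar list 1 rose and 10 fell at 3 months (3 and 7 rescaled), and 9 and 2 at 24 months (3 and 3 rescaled). Nop56, a nucleolar protein, fell at 3 months from 308 to 80.2 TPM (-1.92; rescaled -1.02), and Myc rose at 24 months from 108 to 192 TPM (0.82; rescaled 0.39).

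These counts stand beside 72.6% of all genes lower at 3 months and 58.2% higher at 24 months as deposited, and beside the rescaled shares of all genes given above for these tests. The lists were not tested against other genes. Of 14 proliferation genes, 0 rose and 6 fell at 24 months (0 and 13 rescaled), and 0 rose and 13 fell at 3 months (3 and 6 rescaled). Of the 79 ribosomal protein genes 70 were higher and 6 lower at 3 months (77 and 1 rescaled), and 5 higher and 48 lower at 24 months (0 and 76 rescaled). Of 10 genes of a handling response list 0 rose and 10 fell at 3 months (1 and 5 rescaled), and the part of handling was not tested.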

How the data were processed

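RNA of 30 sorted progenitor samples had been sequenced, and the authors deposited gene-level TPM in 5 tables of 6 libraries each. The submitters' processing notes name HISAT2, StringTie, featureCounts, DESeq2 and the build mm10, without versions or roles, and which tool gave the TPM is not known. TPM in each library share a fixed total and keep no read depth, so no counting interval can be given. The labels' protocols name total RNA and a low-input amplification kit, which can shift values with transcript length and GC content. All value columns were matched to samples by name, with 0 left unmatched.

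Each table was fitted by itself with limma 3.58.1 (R 4.3.3) on log2(TPM + 1), with trend and robust moderation and 4 residual degrees of freedom. The genes tested reached 1 TPM in 3 or more libraries of a comparison. P-values were adjusted by Benjamini-Hochberg over all genes tested and called below 0.05. Fold changes on this scale understate the change of low genes. Comparisons of 2 tables, and differences between T2 minus T1 values, combined the separate fits with Satterthwaite degrees of freedom. The fit was tested on simulated data first. Median-ratio rescaling over 8913 genes is given beside the deposited scale. Tables were prepared with Python 3.11.15, pandas 2.3.3, numpy 2.4.6 and matplotlib 3.10.9.

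Genes are named by rule: the most abundant gene of each factor group, up to 6 called higher and 6 lower by size in each T2 against T1 test, up to 5 each way between tables, up to 5 step differences of smallest p, paralog pairs, and up to 3 called genes of each list by p. Genes named outside this rule, such as Eif3b, Eif3c, Eif3d, Eif5, the Eif3j pair and some values of genes the rule names elsewhere (Eif2d in MPP4, for example), were chosen after their values were seen. Members and lists were chosen with earlier results of these data known. Gene positions come from GENCODE vM21 on GRCm38 (the same assembly as mm10) and promoter sequence from RefSeq GRCm38.p6. A pyrimidine run at the start site was also looked for in an earlier pass and is not reported.

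Alternatives were a pseudocount of 0.1, no filter, rescaling, 1 fit of all 30 libraries, no trend or robust moderation, a replicate block, removal of a GC and length trend (12696 genes) and each library left out. Comparisons within T1 or T2 cells alone, and rescaled values of the pathway lists and of the ratios between group means, were added after seeing the data.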

Additional observations from a re-analysis of the deposited data

Results flagged for a closer look

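The T2 minus T1 difference of some factor genes differed between tables by a limma test of that difference itself (log2 scale, adjusted p below 0.05 over all genes). The up to 5 genes of smallest p are given for each pair of tables, and no cause is weighed.

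Between KOiMOS and WTiMOS MPP3 of 3 months, the difference was -0.68 for Eif4e3, -0.50 for Eif4ebp1, 0.31 for Eef1a1, -0.37 for Eif1a and -0.60 for Eef2kmt, which methylates eEF2. Those of Eif4e3, Eif4ebp1 and Eef1a1 also passed after rescaling, and those of Eif1a (-0.21) and Eef2kmt (-0.44) did not.

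Between 24 and 3 months in WTiMOS MPP3, it was 1.06 for Eef2, 0.97 for Eef1g, -0.87 for Eif2s2, 1.06 for Eif3f and 0.88 for Eef1a1, all called on both scales. Between the ages in MPP4, it was 4.27 for Eef2, 2.43 for Eif6, 2.66 for Eif4e3, 2.39 for Eif4h and 2.30 for Eif3l, all called on both scales.

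Between MPP4 and MPP3 of 3 months, it was -2.93 for Eef2, -2.07 for Eif6, -1.94 for Eif3l, -1.81 for Eif4h and -2.31 for Eif4e3, all called on both scales. The T2 libraries of MPP4 of 3 months enter both of these last comparisons, which therefore share their values. Between MPP4 and MPP3 of 24 months, it was 0.92 for Eif4a1, -0.62 for Eef1g, 0.49 for Eif2s1, 0.60 for Eif2b2 and -0.66 for Eef1b2. Those of Eif2s1 (0.25) and Eif2b2 (0.37) were not called after rescaling.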

How the results depend on the processing

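The number of factor genes called stayed within 1.5 times of the value reported under the alternatives run, except as follows. T2 against T1 in KOiMOS MPP3 gave 9 genes with no trend or robust moderation. In WTiMOS MPP3 of 3 months it gave 3 in 1 fit of all libraries and 0 with no trend or robust moderation (limma, with 5 at an unadjusted p below 0.05), and 2 to 13 as each library was left out. In MPP4 of 24 months it gave 21 after removal of the GC and length trend, 6 higher and 15 lower. MPP4 against MPP3 of 24 months gave 6 within T1 cells. The step difference between KOiMOS and WTiMOS gave 2 with no trend or robust moderation and 3 to 8 with libraries left out. The step difference between MPP4 and MPP3 of 24 months gave 14 after rescaling, 16 after removal of the GC and length trend, and 3 to 10 with libraries left out.

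Directions turned for some named genes. In T2 against T1 of MPP4 of 3 months, rescaling gave 0.87 for Eif4ebp1, 0.45 for Eif4a2, 0.76 for Eif4g2, 0.31 for Eif4g3 and 0.51 for Eif2s1, and removal of the GC and length trend gave 0.68 for Eif4ebp1, 0.17 for Eif4a2, 0.18 for Eif4g3 and 0.21 for Eif2s1. In MPP4 of 24 months rescaling gave -0.11 for Eif2b2 and -0.42 for Eif3e. For age in MPP4, T1 cells alone gave -0.10 for Eif5a, -0.39 for Eif4e3, -0.30 for Eif3l, -0.45 for Eif4g1, -1.29 for Eef2 and 0.89 for Eif2s2, and T2 cells alone gave 0.11 for Eif3f. Of 182 values of named genes, 155 kept direction and side of the threshold under rescaling, 162 under removal of the GC and length trend and 182 with the other pseudocount. The cause was not tested. Deviations of same-numbered T1 and T2 libraries had correlations of -0.205 to 0.128. Only in WTiMOS MPP3 of 3 months did all same-numbered pairs (0.0386 to 0.0682) lie above all others (-0.0491 to -0.009). With 3 libraries per group, such values cannot show whether the numbers pair libraries. With the replicate block, 12, 9, 27, 47 and 26 genes were called in the 5 tables, and 4 of the 182 values lost the threshold. Depth is unknown and its limit cannot be stated.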
